A study of Mus musculus with 6 samples.

Results

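The 51 genes described here drive, restrain or mark the cell division cycle: 14 control G1, 15 serve the replication of DNA in S phase and 22 act in mitosis. They were chosen by name, as the rows of the deposited gene table that carry these 51 symbols, out of 20323 rows in all. For a symbol with more than one row the row with the highest mean count was kept. The study sequenced RNA from RFB, which the labels call a fibroblast line of kidney. Of the libraries 3 came from cells given TGF-β, a cytokine that turns fibroblasts toward a matrix-producing state, together with CXCL10, a chemokine, and 3 from cells given TGF-β alone. Titles of the CXCL10 libraries carry a volume of 5 µl, with no concentration. Values "with CXCL10" are those of the TGF-β + CXCL10 group. All 6 libraries come from TGF-β-treated cells, and no untreated cells are among them. The series text speaks of a SUV39H1 knockdown, whereas the sample labels name these treatments alone. The labels give the organism as mouse, yet every row is a human Ensembl gene, so all levels are levels on human gene models.

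Cells enter division when D-type cyclins activate CDK4 and CDK6, which phosphorylate the retinoblastoma protein and release E2F transcription factors. E2F factors then switch on cyclin E and the genes that copy DNA. Genes for mitosis peak later and are held off in resting cells by the DREAM repressor complex, while INK4 and CIP/KIP inhibitors hold the cyclin-dependent kinases back in arrested cells.

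Totals of the 6 libraries lay between 12838106 and 15587409 counts, with a count on 13939 to 14224 genes. Levels are given as CPM, counts per library scaled by TMM to a common depth, and levels between genes as FPKM, the deposited value scaled for gene length and depth. A count of 0 in a library allows a level of up to 0.187 to 0.237 CPM, at 3 counts, which covers counting error only. TGF-β replicate 1 stood apart from its group: chi-square over its degrees of freedom, computed on gene counts, came to 18.2 and 17.0 against TGF-β replicates 2 and 3, and to 3.10 between those. CXCL10 replicate 1 stood at 9.14 and 8.74 against replicates 2 and 3 of its group, and 2.80 separated these. All 9 fibroblast markers averaged at least 5 CPM, with summed levels of 50341 to 54630 CPM in the TGF-β + CXCL10 libraries and 52682 to 60144 CPM in the TGF-β libraries. In the edgeR fit with replicate numbers as a block, VIM (log2 fold change 0.38, adjusted p = 6.98e-05) and THY1 (0.43, adjusted p = 0.000868) were higher with CXCL10, and LUM (-0.32, adjusted p = 0.000361), DCN (-0.25, adjusted p = 0.00411) and COL1A1 (-0.14, adjusted p = 0.00835) lower. The 8 kidney epithelium markers summed to 19.1 to 20.6 CPM with CXCL10 and 20.9 to 22.3 CPM with TGF-β alone, and 3 of them had a count of 0 in every library. Most of that sum was AQP1 and PAX8, which lay in opposite directions and did not pass. AQP1 averaged 11.4 CPM with CXCL10 and 12.8 CPM with TGF-β alone (log2 fold change -0.16, adjusted p = 0.422 in the edgeR fit with the block). PAX8 averaged 7.65 CPM with CXCL10 and 6.09 CPM with TGF-β alone (0.32, adjusted p = 0.249 in that fit). Within that list CDH1, which encodes E-cadherin, stood at 0.211, 0.474 and 1.42 CPM with CXCL10 and at 1.55, 1.99 and 3.68 CPM with TGF-β alone, and was lower with CXCL10 in the edgeR fit with the block (log2 fold change -1.89, adjusted p = 0.00898) but did not pass without it (-1.76, adjusted p = 0.176). The part of these markers in the differences of the cell cycle genes was not tested. The 5 endothelial markers summed to 47.7 to 51.6 CPM with CXCL10 and 50.3 to 51.4 CPM with TGF-β alone, and the 5 leukocyte markers to 39.3 to 45.7 CPM with CXCL10 and 37.6 to 43.7 CPM with TGF-β alone. Each sum was mostly 1 gene. TEK averaged 47.2 CPM with CXCL10 and 48.1 CPM with TGF-β alone, and CD68 averaged 40.5 and 38.5 CPM. No other marker of these lists, such as PECAM1, CDH5, PTPRC or CD3E, reached 3 CPM in any library.

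Per gene length, the cells held more RNA for G1 control than for replication, and least for mitosis. Over all 6 libraries the median level was 6.48 FPKM for the G1 control members, 4.04 FPKM for the S phase members and 0.572 FPKM for the mitotic members, beside 8.01 FPKM over the 11970 genes tested. The median percentile among genes tested was 42.7 for the G1 control members, 32.0 for the S phase members and 5.75 for the mitotic members. The class medians include members not tested, 4 of them mitotic, whereas the genes tested had passed a filter on counts. Under 1 FPKM lay 3 of 14 G1 control members, 4 of 15 S phase members and 18 of 22 mitotic members. In these bulk libraries fewer dividing cells and less RNA per dividing cell cannot be told apart. By library the mitotic median was 0.5995, 0.536 and 0.696 FPKM with CXCL10 and 0.543, 0.453 and 0.646 FPKM with TGF-β alone. The G1 control median was 7.92, 7.19 and 6.40 FPKM with CXCL10 and 6.75, 5.33 and 5.29 FPKM with TGF-β alone, and the S phase median 5.30, 3.83 and 3.84 FPKM with CXCL10 and 3.84, 4.89 and 3.34 FPKM with TGF-β alone. The order of the classes was the same in every library. The factor from CPM to FPKM differed between libraries for some genes, by 6.32 times for CENPE, 3.37 times for MCM4 and 3.25 times for TTK, so FPKM is used here for levels of genes and classes and CPM for differences between the groups.

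**Figure D1:**
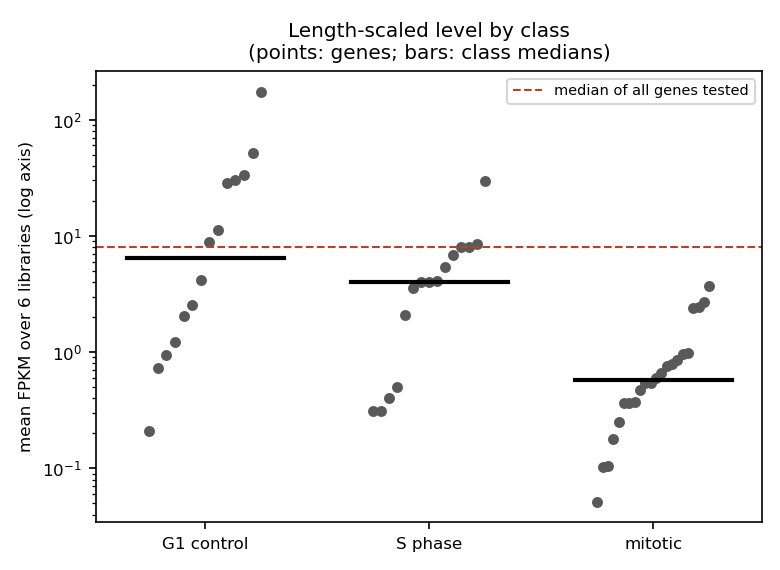
Mean level over the 6 libraries in FPKM (log axis) of each gene, one point per gene, by class; bars are class medians and the dashed line is the median of all genes tested. The mitotic members, with a median of 0.572 FPKM, all lie below the dashed line at 8.01 FPKM.

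Summed over its 22 members, the mitotic class came to 57.8, 57.4 and 55.2 CPM in the TGF-β + CXCL10 libraries and 53.8, 51.6 and 53.2 CPM in the TGF-β libraries, that is 0.00532% to 0.00568% of the counts of a library. The S phase class summed to 192.1, 192.4 and 181 CPM with CXCL10 and 183, 187 and 179 CPM with TGF-β alone. The G1 control class summed to 1298, 1255 and 1206 CPM with CXCL10 and 1189, 1037 and 1027 CPM with TGF-β alone. In CPM the CXCL10 libraries were thus above every TGF-β library for the mitotic and G1 control sums, while the S phase sums overlapped. Summed in FPKM the mitotic class overlapped as well, at 21.4, 19.8 and 20.6 FPKM with CXCL10 and 19.8, 18.5 and 21.0 FPKM with TGF-β alone. On the log2 scale the group means of the CPM sums differed by 0.21 for G1 control, 0.04 for S phase and 0.10 for mitosis, as values without a test. In FPKM these differences were 0.10 for G1 control, -0.08 for S phase and 0.06 for mitosis. CCND1 held most of the G1 control difference, with a mean of 300.4 CPM with CXCL10 and 138 CPM with TGF-β alone. The other 13 G1 control members summed to 911, 1003 and 945 CPM with CXCL10 and 942, 952 and 947 CPM with TGF-β alone, which overlapped. The sum of the 4 CDK inhibitors among them averaged 647 CPM with CXCL10 and 697 CPM with TGF-β alone. Most of that sum was CDKN2B, at means of 612 CPM with CXCL10 and 660 CPM with TGF-β alone. Per length the most abundant members were CDKN2B at 173 FPKM and CCND1 at 51.5 FPKM, both of the G1 control class.

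In the edgeR quasi-likelihood test that ignores replicate numbers, none of the 11970 genes passed an adjusted p of 0.05 (0% higher and 0% lower), so neither did any of the 45 members tested. At an unadjusted p under 0.05 the same test had 2449 genes, or 20.5%, and 7 members: CCND1, CCND3, CDK6, CDK4, TYMS, CCNB1 and TTK. DESeq2 without the block called 172 genes higher (1.44%) and 163 lower (1.36%), and of the members CCND3 and CDK6 higher. With replicate numbers as a block, here called the paired fit, edgeR called 1162 genes higher (9.71%) and 962 lower (8.04%). Of the 45 members tested it called 3 higher, CCND1, CCND3 and CDK6, and 2 lower, CDK4 and TYMS, and left 40 uncalled. By class these were 3 higher and 1 lower of 13 G1 control members, 0 higher and 1 lower of 14 S phase members, and 0 of 18 mitotic members. The 5 calls among 45 members stand beside 17.7% called in either direction over all genes in the paired fit, a background above their own share. Without TGF-β replicate 1 the unpaired edgeR fit called the same 5 members and MCM6. That fit called 1302 genes higher and 1046 lower of 12145 tested, a larger share than among its 45 tested members. Its log2 fold changes were 0.76 for CCND3 (adjusted p = 0.00342), 0.79 for CDK6 (adjusted p = 0.00131), -0.44 for CDK4 (adjusted p = 0.0103) and -0.56 for TYMS (adjusted p = 0.0332). Not tested for their low counts were CCNE2, CDC45, CDK1, AURKB, KIF20A and UBE2C.

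**Figure D2:**
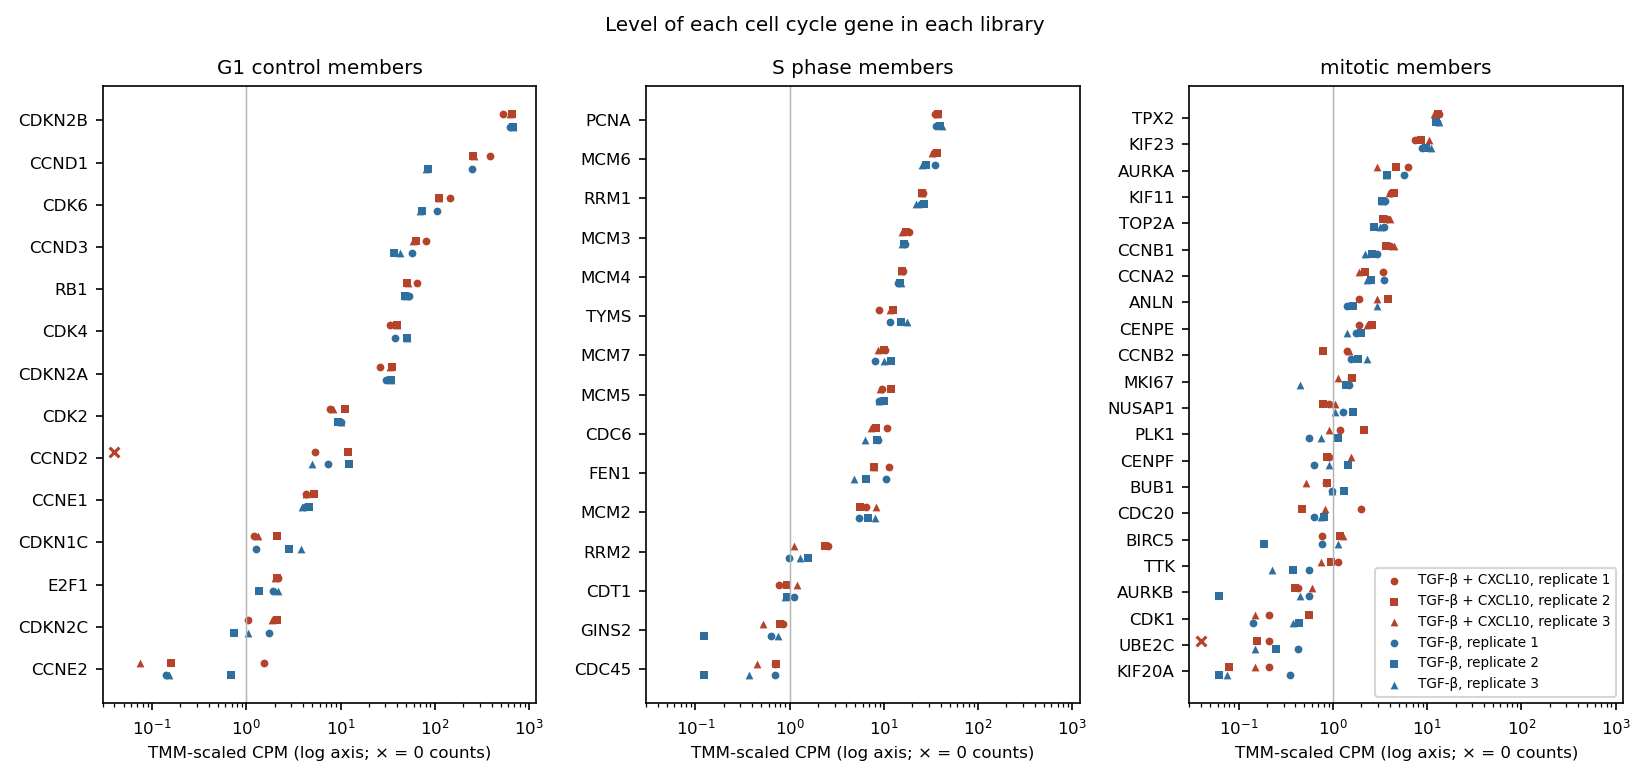
Level of each of the 51 genes in each library, in TMM-scaled CPM on a log axis, by class; red marks are TGF-β + CXCL10 libraries, blue marks TGF-β libraries, shapes are replicate numbers and a cross is a count of 0. Most mitotic members lie at or below a few CPM, and CCND1, CDK6 and CCND3 have their red marks to the right of the blue ones.

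All 4 calls among the G1 control members in the paired edgeR fit were D-type cyclins or their kinases. CCND1 (ENSG00000110092), which encodes cyclin D1, stood at 388, 252 and 261 CPM in the TGF-β + CXCL10 libraries and at 247, 85.1 and 80.6 CPM in the TGF-β libraries. The groups did not overlap, but TGF-β replicate 1 lay next to the CXCL10 libraries and well above its own group. CCND1 was higher with CXCL10 in the paired edgeR fit (log2 fold change 1.28, SE 0.14, adjusted p = 4.99e-05), with log2 ratios by pair of 0.65, 1.57 and 1.70. As the groups did not overlap, any pairing would give ratios above 0. It did not pass without the block (log2 fold change 1.13, edgeR adjusted p = 0.171), where leaving out TGF-β replicate 1 gave 1.86 (adjusted p = 0.000133).

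CCND3 (ENSG00000112576), which encodes cyclin D3, stood at 81.1, 63.5 and 58.5 CPM with CXCL10 and at 57.6, 37.0 and 43.0 CPM with TGF-β alone. TGF-β replicate 1 came within 1 CPM of the lowest CXCL10 library, and the groups did not overlap. It was higher with CXCL10 in the paired edgeR fit (log2 fold change 0.57, SE 0.08, adjusted p = 0.000236) and not in the unpaired one (0.56, adjusted p = 0.161). CDK6 (ENSG00000105810), a kinase partner of the D cyclins, stood at 145, 112 and 109.6 CPM with CXCL10 and at 107, 72.6 and 69.4 CPM with TGF-β alone. Here too every CXCL10 library was above every TGF-β library, with TGF-β replicate 1 closest to them. CDK6 was higher in the paired edgeR fit (log2 fold change 0.57, SE 0.06, adjusted p = 3.38e-05) and did not pass in the unpaired one (0.56, adjusted p = 0.161). In the authors' deposited table the adjusted p was 0.0483 for CCND3, 0.0373 for CDK6 and 0.363 for CCND1.

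The other kinase of the pair went the opposite way. CDK4 (ENSG00000135446) stood at 33.8, 39.4 and 39.5 CPM with CXCL10 and at 37.9, 50.4 and 51.2 CPM with TGF-β alone. TGF-β replicate 1 lay within the range of the CXCL10 libraries, so the groups overlapped. In the paired edgeR fit CDK4 was lower with CXCL10 (log2 fold change -0.30, SE 0.08, adjusted p = 0.0171), and in the unpaired fit it did not pass (-0.31, adjusted p = 0.215). The paired edgeR call ended without both libraries of number 2 (adjusted p = 0.110) or of number 3 (adjusted p = 0.162), and with DESeq2 (adjusted p = 0.0982). The ratio of CDK6 to CDK4 within a library, in CPM and not corrected for length, was 4.28, 2.85 and 2.78 with CXCL10 and 2.81, 1.44 and 1.35 with TGF-β alone. TGF-β replicate 1 had a ratio as high as that of CXCL10 replicates 2 and 3. Per length the order of these kinases was the reverse, with a mean of 8.79 FPKM for CDK6 and 30.1 FPKM for CDK4 over the 6 libraries.

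CCND2, for cyclin D2, has a row ENSG00000285901 with 5.41, 12.1 and 0 CPM with CXCL10 and 7.32, 12.4 and 4.96 CPM with TGF-β alone. CXCL10 replicate 3 had no count there, while another row of the same symbol (ENSG00000118971) held 31, 29 and 32 counts with CXCL10 and 36, 28 and 30 counts with TGF-β alone. Reads may be split between the rows, so the level of CCND2 is uncertain, and it passed neither fit with all libraries. Of the first row, the paired edgeR fit gave a log2 fold change of -0.95 (adjusted p = 0.00708) without both libraries of number 1 and -1.62 (adjusted p = 0.00683) without both libraries of number 2. Both of these fits keep CXCL10 replicate 3 with its count of 0, and without both libraries of number 3 CCND2 was not called. The other row had a paired edgeR log2 fold change of 0.08 (adjusted p = 0.905) with all libraries.

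**Figure D3:**
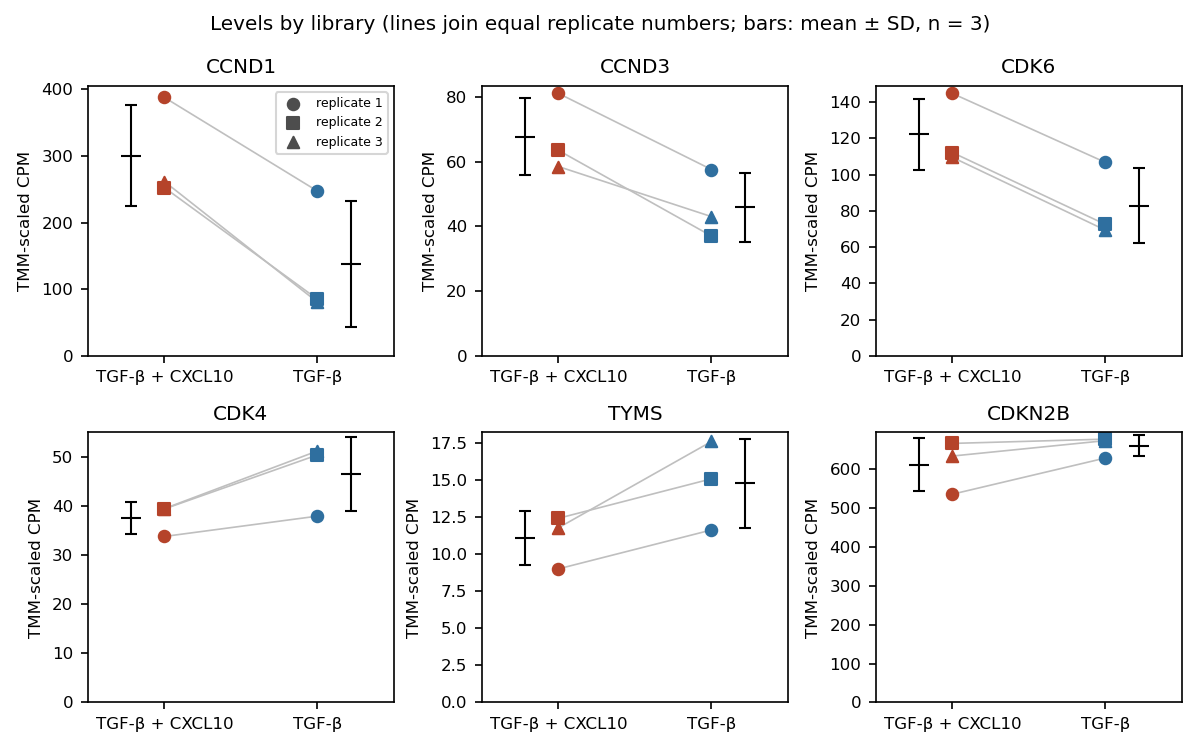
Level in each library, in TMM-scaled CPM on axes that start at 0, of 6 genes with the TGF-β + CXCL10 group left of the TGF-β group; grey lines join equal replicate numbers and bars are mean ± SD (n = 3). CCND1, CCND3 and CDK6 are higher with CXCL10 in each pair, CDK4 and TYMS lower in each pair, and CDKN2B shows little difference.

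Of the 4 CDK inhibitors among the members, CDKN2B and CDKN2A were abundant and CDKN2C and CDKN1C low, and none passed in either edgeR fit with TMM scaling. CDKN2B (ENSG00000147883), which encodes p15, an INK4 inhibitor of CDK4 and CDK6 and a known target of TGF-β, stood at 536, 667 and 634 CPM with CXCL10 and at 629, 678 and 674 CPM with TGF-β alone. Its mean of 173 FPKM placed it at percentile 97.3 of the genes tested. The lowest value was that of CXCL10 replicate 1, and the groups overlapped (paired edgeR log2 fold change -0.11, SE 0.05, adjusted p = 0.134). With library totals as scaling, which puts the median of all genes at -0.05, CDKN2B passed the paired edgeR test as lower (-0.16, adjusted p = 0.0226). CDKN2B overlaps an antisense RNA gene, and the sources do not say whether counting used strand.

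CDKN2A (ENSG00000147889), the locus of p16 and of ARF, stood at 26.4, 35.5 and 33.3 CPM with CXCL10 and at 30.5, 34.0 and 34.1 CPM with TGF-β alone, a mean of 33.4 FPKM and percentile 84.8. The groups overlapped, and gene-level counts do not separate its products (paired edgeR log2 fold change -0.06, SE 0.09, adjusted p = 0.708). The other inhibitors were low. CDKN2C, for the INK4 protein p18, stood at 1.05, 2.13 and 1.87 CPM with CXCL10 and at 1.76, 0.747 and 1.05 CPM with TGF-β alone. CDKN1C, for the CIP/KIP protein p57, stood at 1.19, 2.13 and 1.35 CPM with CXCL10 and at 1.27, 2.86 and 3.83 CPM with TGF-β alone. Both overlapped between groups and passed in neither fit. Among the remaining G1 members, none of which passed, RB1, the retinoblastoma gene, averaged 11.2 FPKM, CDK2 4.16 FPKM, and CCNE1, for cyclin E1, 2.56 FPKM. E2F1, an activating E2F, averaged 0.729 FPKM, and CCNE2, for cyclin E2, 0.210 FPKM.

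Of the S phase members, TYMS alone passed, in the paired edgeR fit. TYMS (ENSG00000176890), thymidylate synthase, which makes the thymidine nucleotide for DNA, stood at 8.99, 12.4 and 11.8 CPM with CXCL10 and at 11.6, 15.1 and 17.6 CPM with TGF-β alone. TGF-β replicate 1 lay inside the CXCL10 range, and in each pair the CXCL10 library was the lower one. The log2 fold change was -0.41 (SE 0.13, edgeR paired adjusted p = 0.0386) and -0.42 in the unpaired edgeR fit (adjusted p = 0.233). The paired call ended without both libraries of number 2 (edgeR adjusted p = 0.0631) or of number 3 (0.277), with DESeq2 (adjusted p = 0.228) and with limma-trend on FPKM (adjusted p = 0.0905). TYMS overlaps a gene on the other strand, ENOSF1, near its end, so its counts are uncertain without strand.

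The MCM genes encode the helicase that opens DNA at replication origins, and MCM6 had the lowest p among them. MCM6 stood at 34.2, 36.6 and 32.8 CPM with CXCL10 and at 34.8, 28.3 and 25.5 CPM with TGF-β alone. TGF-β replicate 1 sat among the CXCL10 libraries, and the fit with all libraries did not pass (paired edgeR log2 fold change 0.23, SE 0.10, adjusted p = 0.122). Without TGF-β replicate 1 the unpaired edgeR value was 0.36 (adjusted p = 0.0305), and without both libraries of number 1 the paired value was 0.37 (adjusted p = 0.00497). MCM2 stood at 6.39, 5.53 and 8.24 CPM with CXCL10 and at 5.42, 6.72 and 8.04 CPM with TGF-β alone, ranges that nearly coincide. The 6 MCM genes summed to 95.1, 96.8 and 89.4 CPM with CXCL10 and to 87.9, 88.4 and 83.4 CPM with TGF-β alone. Their levels lay between 2.08 FPKM for MCM2 and 8.52 FPKM for MCM6.

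PCNA, the sliding clamp of the replication fork and the S phase member with the highest level at 29.5 FPKM, stood at 35.2, 37.3 and 36.4 CPM with CXCL10 and at 36.2, 39.2 and 41.7 CPM with TGF-β alone. The groups overlapped (paired edgeR log2 fold change -0.10, SE 0.08, adjusted p = 0.418). FEN1, the nuclease that trims Okazaki fragments, stood at 11.2, 7.82 and 7.86 CPM with CXCL10 and at 10.6, 6.47 and 4.88 CPM with TGF-β alone. RRM2, the inducible subunit of ribonucleotide reductase, stood at 2.53, 2.37 and 1.12 CPM with CXCL10 and at 0.985, 1.56 and 1.28 CPM with TGF-β alone, whereas its partner RRM1 averaged 25.5 CPM with CXCL10 and 24.6 CPM with TGF-β alone. Per length the subunits stood at 0.5005 FPKM for RRM2 and 7.96 FPKM for RRM1. Origin licensing and activation genes were near the lower end of detection: CDT1 averaged 0.406 FPKM, GINS2 0.313 FPKM and CDC45 0.309 FPKM, while CDC6 reached 3.58 FPKM.

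The mitotic members were low in every library. MKI67, which encodes the proliferation antigen Ki-67, stood at 1.55, 1.58 and 1.12 CPM with CXCL10 and at 1.48, 1.37 and 0.451 CPM with TGF-β alone, or 22, 20 and 15 counts with CXCL10 and 21, 22 and 6 counts with TGF-β alone. Its mean of 0.105 FPKM was at percentile 0.117 of the genes tested, which were filtered by count and not by level per length. In CPM it averaged 1.26 over all libraries, while 344 of the genes tested averaged under 1 CPM. CDK1, the kinase that drives entry into mitosis, held 3, 7 and 2 counts with CXCL10 and 2, 7 and 5 counts with TGF-β alone, which is at or near the level of 3 counts and too low to compare. TOP2A, the topoisomerase that untangles chromosomes, stood at 3.72, 3.40 and 4.04 CPM with CXCL10 and at 3.45, 2.74 and 3.15 CPM with TGF-β alone, with groups that overlap by 1 library.

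The 4 mitotic members with the lowest paired p passed in neither fit. CCNB1, for cyclin B1, stood at 4.01, 3.63 and 4.42 CPM with CXCL10 and at 2.96, 2.61 and 2.18 CPM with TGF-β alone. The groups did not overlap (paired edgeR log2 fold change 0.64, SE 0.27, adjusted p = 0.127). CCNB2, for cyclin B2, lay the other way, at 1.41, 0.790 and 1.498 CPM with CXCL10 and 1.55, 1.87 and 2.33 CPM with TGF-β alone (paired edgeR log2 fold change -0.64, SE 0.39, adjusted p = 0.294). These cyclins both bind CDK1, and neither difference passed. TTK, a kinase of the spindle checkpoint, stood at 1.12, 0.948 and 0.749 CPM with CXCL10 and at 0.563, 0.373 and 0.225 CPM with TGF-β alone, from 3 to 16 counts per library (paired edgeR log2 fold change 1.28, SE 0.54, adjusted p = 0.127). PLK1, a kinase of mitotic entry and spindle assembly, stood at 1.19, 2.13 and 0.899 CPM with CXCL10 and at 0.563, 1.12 and 0.751 CPM with TGF-β alone, with overlap between the groups. Within the class TPX2 and KIF23, a spindle assembly factor and a motor of cytokinesis, were the most abundant per length, at 3.67 and 2.72 FPKM.

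Of the 18 tested mitotic members, 3 were higher and 3 lower in CPM with groups that did not overlap: CCNB1, KIF11 and TTK higher with CXCL10, and CCNB2, BUB1 and NUSAP1 lower. Over all genes tested 11.1% were higher and 11.2% lower in this sense, and none of these members passed a test. NUSAP1 has 2 rows, of which the other held 0 to 3 counts per library, and its groups were apart by less than 0.01 CPM. In mean FPKM BUB1 lay the other way, at 0.381 with CXCL10 and 0.355 with TGF-β alone. So did NUSAP1, at 0.616 and 0.583 FPKM, whereas CCNB1, KIF11, TTK and CCNB2 kept their direction. The remaining mitotic members, which include the aurora kinases, the passenger complex member BIRC5, the kinetochore proteins CENPE and CENPF, the anaphase activator CDC20 and ANLN of the cleavage furrow, overlapped between groups. The median log2 fold change over the members tested, without the block, was 0.12 for G1 control, 0.08 for S phase and 0.28 for mitosis, beside -0.01 over all genes tested. The G1 control median was -0.06 among genes of at least 5 CPM, 0.07 without CXCL10 replicate 1, 0.19 without CXCL10 replicate 3 and 0.05 without TGF-β replicate 2. The S phase median was 0.05 without CXCL10 replicate 1, 0.14 without CXCL10 replicate 3 and 0.03 with library totals as scaling. The mitotic median was 0.05 in the paired fit without both libraries of number 1 and 0.02 in the paired limma-trend fit on FPKM. By pair of libraries, medians were taken of log2 CPM ratios and not of fitted values. These ratios carry a prior count of 2, which draws those of low counts toward 0. On this measure the mitotic median was 0.10, 0.24 and 0.14. On it the G1 control median was -0.08, 0.18 and -0.03, and the S phase median 0.13, 0.04 and 0.01. No difference between the classes was tested. In the fitted values without the block, 12 of 18 mitotic members lay above 0 and 6 below, against 10 and 4 of the S phase members and 7 and 6 of the G1 control members. Over all 11970 genes tested, 5827 lay above 0 and 6143 below. Most mitotic members have few counts, so their signs are uncertain, and these counts were not tested.

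**Figure D4:**
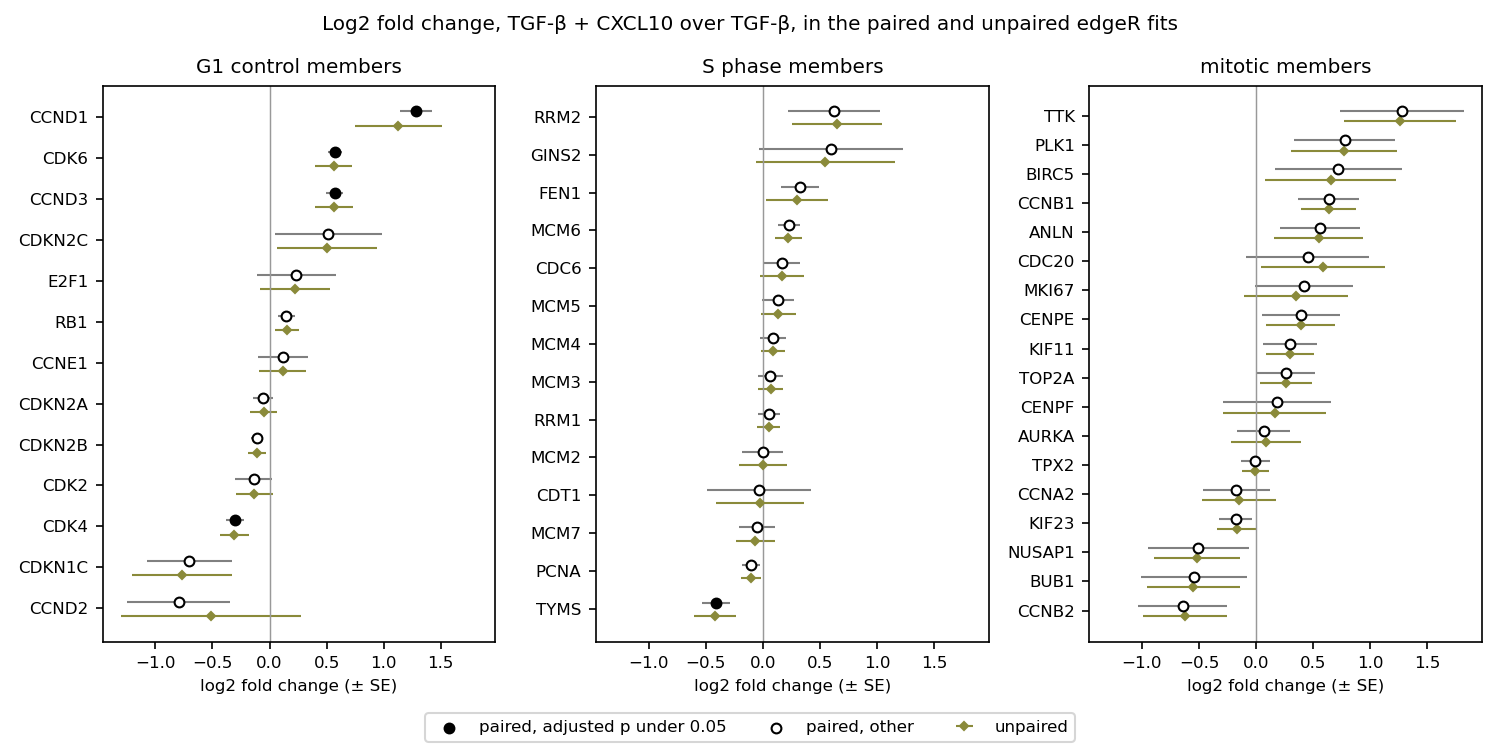
Log2 fold change of TGF-β + CXCL10 over TGF-β with its standard error for the 45 tested genes, by class; circles are the paired edgeR fit, filled where its adjusted p is under 0.05, and diamonds the unpaired fit. The filled circles are CCND1, CCND3, CDK6, CDK4 and TYMS, and standard errors are wide for the mitotic members.

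The classes also differ in the promoters of their mouse genes, which are shown because most mitotic genes matched here held both of a pair of motifs. RefSeq windows of GRCm38.p6, from 250 bases before to 50 after each start, were matched by symbol to 40 of the 51 members. Of these, 5 have several starts. Shares count genes, and a motif in any window of a gene counts, so 2 motifs of such a gene may lie in different windows. They are mouse sequence, while the counted rows are human genes. The CHR element TTTGAA, searched on both strands, was in 13 of 18 mitotic promoters (72.2%), 3 of 13 S phase promoters (23.1%) and 1 of 9 G1 control promoters, and in 20.2% of all genes with a window. A CCAAT box was in 15 of 18 mitotic promoters (83.3%), 9 of 13 S phase promoters (69.2%), 4 of 9 G1 control promoters (44.4%) and 41.1% of all genes. Both motifs were in 12 of 18 mitotic promoters (66.7%), 2 of 13 S phase promoters (15.4%), 0 of 9 G1 control promoters and 8.97% of all genes, and their order and spacing were not measured over the class. An E2F core, searched on both strands as TTCCCGC and as TTCGCGC, then as TTGCCGC and as TTGGCGC, was in 9 of 13 S phase promoters (69.2%), 3 of 18 mitotic promoters (16.7%), 3 of 9 G1 control promoters (33.3%) and 10.9% of all genes. These matches describe letters in a window and say nothing of binding. Stretches of 120 bases before to 30 after the start follow, 5′ to 3′ on the gene's strand, with motif matches in capitals. All of these genes lie on the minus strand.
Ccnb2 (for cyclin B2, mitotic, chr9:70421525-70421674): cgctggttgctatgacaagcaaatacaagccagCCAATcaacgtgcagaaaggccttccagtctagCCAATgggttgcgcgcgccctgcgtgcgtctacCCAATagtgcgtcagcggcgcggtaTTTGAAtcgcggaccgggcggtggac
Cdk1 (mitotic, chr10:69352883-69353032): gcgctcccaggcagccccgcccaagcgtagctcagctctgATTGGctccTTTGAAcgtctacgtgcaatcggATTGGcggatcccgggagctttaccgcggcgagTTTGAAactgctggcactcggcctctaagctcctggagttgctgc
Cdc20 (mitotic, chr4:118437314-118437463): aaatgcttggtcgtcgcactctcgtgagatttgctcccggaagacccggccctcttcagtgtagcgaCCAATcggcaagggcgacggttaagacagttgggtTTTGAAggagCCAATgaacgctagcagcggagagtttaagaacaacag
Mcm6 (S phase, chr1:128359676-128359825): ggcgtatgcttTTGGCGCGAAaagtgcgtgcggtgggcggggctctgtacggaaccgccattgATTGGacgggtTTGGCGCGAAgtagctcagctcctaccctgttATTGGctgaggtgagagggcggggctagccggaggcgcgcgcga
In the stretches of Ccnb2, Cdk1 and Cdc20 the capitals are CCAAT or its complement ATTGG and TTTGAA, and a CHR element lies within 20 bases of the start in each. In that of Mcm6 they are ATTGG and a run of 10 letters in which TTGGCGC and, on the other strand, TTCGCGC overlap. The human counts of CCNB2, CDK1 and CDC20 were between 2 and 31 per library, and MCM6 was at 25.5 to 36.6 CPM.

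Other genes of the cycle, from lists that hold no member, passed in small numbers and in both directions in the paired edgeR fit, beside the 9.71% higher and 8.04% lower of all genes. None passed in the unpaired edgeR fit, whereas DESeq2 without the block gave an adjusted p of 0.0261 for E2F7, 0.0159 for POLA2, 0.000172 for CDC25B and 0.0148 for NCAPD2. Of 16 tested genes of the retinoblastoma, E2F and DREAM group, 3 were higher and 2 lower. E2F7, an atypical E2F that represses cell cycle genes, stood at 78.9, 54.3 and 51.4 CPM with CXCL10 and at 46.5, 39.8 and 40.5 CPM with TGF-β alone, with no overlap (paired edgeR log2 fold change 0.52, SE 0.08, adjusted p = 0.000818). RBL2, which encodes the pocket protein p130 of resting cells, stood at 22.4, 24.3 and 28.3 CPM with CXCL10 and at 28.4, 32.2 and 36.3 CPM with TGF-β alone, groups that touch but do not overlap (-0.37, SE 0.09, edgeR adjusted p = 0.00944). RBL2 did not pass in DESeq2 with the block (adjusted p = 0.0697). RBBP4, a histone-binding protein found in DREAM and in chromatin complexes, stood at 59.6, 61.3 and 67.1 CPM with CXCL10 and at 69.8, 74.7 and 82.9 CPM with TGF-β alone (-0.27, SE 0.06, edgeR adjusted p = 0.00780).

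Of 12 other G1 to S control genes 0 were higher and 1 lower. This was CDKN1A, which encodes p21, a CIP/KIP inhibitor, at 626, 758 and 727 CPM with CXCL10 and 738, 956 and 970.5 CPM with TGF-β alone (paired edgeR log2 fold change -0.33, SE 0.05, adjusted p = 0.000351). TGF-β replicate 1 lay within the CXCL10 range, and at a mean of 377 FPKM CDKN1A was more abundant than any member. SKP2, a ubiquitin ligase subunit for CDK inhibitors, had a paired log2 fold change of -0.25 (SE 0.09, edgeR adjusted p = 0.0620), and CDK7, the kinase that activates other CDKs, one of 0.19 (SE 0.09, edgeR adjusted p = 0.169). Of 41 other replication genes 1 was higher and 0 lower. That gene, POLA2, a subunit of DNA polymerase alpha, stood at 7.38, 6.08 and 7.79 CPM with CXCL10 and at 3.73, 3.86 and 1.502 CPM with TGF-β alone (paired edgeR log2 fold change 1.25, SE 0.28, adjusted p = 0.00863), but its symbol has 2 rows, so the value is uncertain. POLE, the leading-strand polymerase, had a paired log2 fold change of -0.40 (SE 0.15, edgeR adjusted p = 0.0866).

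Of 24 other mitosis genes tested, out of 40 listed, 1 was higher and 2 lower. CDC25B, a phosphatase that activates CDK1, stood at 35.1, 42.5 and 33.9 CPM with CXCL10 and at 50.5, 75.7 and 73.7 CPM with TGF-β alone (paired edgeR log2 fold change -0.83, SE 0.10, adjusted p = 7.22e-05). The groups did not overlap, and TGF-β replicate 1 was the lowest of its group. NCAPD2, a condensin subunit, stood at 22.3, 23.8 and 20.7 CPM with CXCL10 and at 30.8, 31.5 and 32.2 CPM with TGF-β alone (-0.50, SE 0.09, edgeR adjusted p = 0.00209), here with TGF-β replicate 1 among its own group. ESPL1, separase, stood at 1.90, 1.18 and 1.20 CPM with CXCL10 and at 0.633, 0.436 and 0.3004 CPM with TGF-β alone (1.63, SE 0.48, edgeR adjusted p = 0.0329). That is 4 to 27 counts per library, and ESPL1 did not pass in DESeq2 with the block (adjusted p = 0.158). All 15 genes of the anaphase-promoting complex list were tested, and 3 were higher and 1 lower. CDC27, a core subunit, stood at 159, 138 and 133 CPM with CXCL10 and at 131, 108 and 112 CPM with TGF-β alone (paired edgeR log2 fold change 0.30, SE 0.05, adjusted p = 0.00143). UBE2S, its chain-extending ubiquitin conjugase, had a value of 0.41 (SE 0.09, edgeR adjusted p = 0.00452) and ANAPC16 one of -0.39 (SE 0.09, edgeR adjusted p = 0.0102).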

How the data were processed

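Per the labels' protocols, RNA of 6 libraries was extracted with an RNeasy kit, and a SMARTer mRNA-seq kit was used for sequencing libraries. GRCm38 and mm10, both mouse, are the builds in the submitters' processing notes, although all 20323 rows are human Ensembl genes. Aligner, counter, annotation and strand setting were not given in the sources used here. Per the file headers, the deposited table holds for every gene and library a raw count and FPKM, and also the authors' log2 ratio and their p-value and adjusted p. Of these the counts were tested, FPKM was used for levels per length, and the authors' adjusted p is given where named.

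Group was tested against group on the counts by the quasi-likelihood test of edgeR 4.0.16 (R 4.3.3) after TMM scaling. The filter was filterByExpr (min.count 10, min.total.count 15), and p-values were adjusted by Benjamini-Hochberg over the 11970 genes kept, with 0.05 as threshold. DESeq2 1.42.0 and limma 3.58.1 served as alternatives. Groups were taken from the labels' treatments, and log2 fold changes are TGF-β + CXCL10 over TGF-β. The replicate numbers of the titles entered as a block in a further fit. Across genes, libraries of equal number deviated together from the means of their groups (correlations 0.330, 0.121 and 0.163, all over 0.1). Of unequal numbers, CXCL10 replicate 2 with TGF-β replicate 3 gave 0.082, and CXCL10 replicate 3 with TGF-β replicate 2 gave 0.080. Unequal pairs with a library of number 1 lay between -0.223 and -0.165. Numbers 2 and 3 were thus told apart only weakly. The numbers were taken to pair the libraries. The titles give the numbers, but the labels do not say that equal numbers are pairs, and these correlations are the only ground for it. Whether replicates are separate cultures is not in the labels, so p-values measure the spread between libraries, which may be technical. Replicates differed by more than sampling noise in each group. Scripts were tested on simulated data with known fold changes. The simulated data had no replicate effect and no library that stood apart, so they did not test the fits under those conditions. Library totals of 12838106 to 15587409 counts limit the precision of genes with few counts, most of them mitotic. The members and the gene lists were chosen with earlier results of these data known. Values are given in every library for D cyclins and CDK inhibitors that pass the filter, for the 4 members of each class with the lowest paired p, and for MKI67, TOP2A, PCNA, MCM2, CCNB1 and CDK1, and up to 3 genes are named for each other list, of which 1 is not reported here. Promoter windows and motifs come from RefSeq, GRCm38.p6.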

Additional observations from a re-analysis of the deposited data

How the results depend on the processing

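Calls depended on the replicate block and on TGF-β replicate 1. Without the block, leaving out 1 library at a time gave 0 to 1302 genes higher and 0 to 1046 lower, and 0 to 4 members higher and 0 to 2 lower, with all calls arising when TGF-β replicate 1 was left out. DESeq2 without the block called 172 genes higher and 163 lower and 2 members higher. The replicate block gave 1162 genes higher and 962 lower with edgeR, 684 and 454 with DESeq2, 877 and 1359 with library totals as scaling, and 337 and 352 with limma-trend on log2(FPKM + 1). Without both libraries of number 1, 2 or 3 the paired edgeR fit gave 1533 and 1313, 680 and 561, and 539 and 365. CCND1, CCND3 and CDK6 were called higher in each of these paired fits, so that 3 members were higher in each, or 4 with MCM6 without number 1. Members called lower numbered 2 in the paired edgeR fit (CDK4 and TYMS), 3 with library totals as scaling (with CDKN2B), 1 with limma-trend (CDK4), 3 without number 1 (with CCND2), 1 without number 2 (CCND2 alone), and 0 with DESeq2 and without number 3. Both fits that called CCND2 kept CXCL10 replicate 3, which had a count of 0 in its row. The cause of these shifts in calls was not tested.

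The median log2 fold change of the G1 control members was -0.0577 among genes of at least 5 CPM, and by single left-out libraries 0.05 to 0.19. That of the mitotic members was -0.0949 among genes of at least 5 CPM, where 2 members are left, 0.0247 with limma-trend on FPKM, 0.0454 without both libraries of number 1, and 0.19 to 0.34 by single left-out libraries. That of the S phase members was 0.03 with library totals as scaling and 0.05 to 0.14 by single left-out libraries. The log2 ratio of summed levels was 0.10 in FPKM for G1 control and 0.06 for mitosis, and for S phase -0.0782 in FPKM and -0.00125 by library totals, so the S phase sum had no stable direction. Over single members and alternatives, 705 values kept their direction and side of the threshold, 40 passed where the unpaired fit did not, and 41 changed sign with a call in neither. Limma-voom, no filter on low counts, library totals alone and a minimum mean of 5 CPM called 0 members without the block. Depth limits the mitotic members, of which 8 of 22 average under 1 CPM.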
